A study of Homo sapiens with 2 samples.

Results

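The genes described here encode the keratins, the intermediate filament proteins of epithelia, and the keratin-associated proteins (KRTAP) of hair. They were chosen by symbol, KRT followed by a digit or KRTAP, among the protein-coding genes of the RefSeq annotation. The rule found 149 of 20033 genes, namely 29 type I keratins, 26 type II keratins and 94 KRTAP genes. RUNX2, a transcription factor of the Runt family, and MTA1, part of the NuRD complex that remodels and deacetylates chromatin, were mapped in untreated MDA-MB-231 cells, a widely used triple-negative breast cancer line. The study names the method as CUT&Tag, although its labels also describe adaptor ligation, so the library preparation is uncertain. CUT&Tag uses an antibody to bring a transposase to its target on chromatin, where it cuts and tags the DNA for sequencing. There was 1 library with an anti-RUNX2 antibody and 1 library with an anti-MTA1 antibody, both from the same line. No value below therefore has a replicate, no test between the libraries was possible, and no control library was analysed here. The authors deposited 1 list of peaks for each library, with 61700 RUNX2 and 42683 MTA1 peaks on chromosomes 1 to 22, X and Y. Each peak carries a score of the authors whose scale is not stated, so scores were ranked only within their own list, as the percentage of peaks with a lower score. Sequencing depth is unknown, and a gene without a peak may have no signal or a signal under the threshold of its library. The 95% exact (Clopper-Pearson) intervals cover counting error over genes, promoters or peaks only.

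Keratin filaments are built from pairs of a type I and a type II chain, and the pair in use changes with the epithelium and with differentiation. Simple epithelia such as the mammary luminal layer use KRT8 with KRT18, joined by KRT7 and KRT19, while basal cells of stratified epithelia use KRT5 with KRT14. Hair keratins form the cortex and cuticle of the hair shaft, where the cysteine-rich or glycine-tyrosine-rich KRTAP proteins cross-link and embed them. The type II genes and KRT18 lie in a cluster on chromosome 12, the other type I genes surround a block of KRTAP genes on chromosome 17, and further KRTAP blocks lie on chromosomes 11 and 21.

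Promoter sequences are shown first for the members on which the positions below turn. The RefSeq table of GRCh38.p14 gave an annotated start for 114 of the 149 members, and the 250 bases before that start are printed 5′ to 3′ on the strand of the gene. KRT12 is shown because a RUNX2 peak lay across its start, as was the case for KRTAP6-3 and for no other member with an annotated start. KRT8, KRTAP4-6 and the 4 KRTAP2 genes were chosen after their values were seen, because peaks of both libraries lay before the start. KRT8 also had peaks of both libraries behind the start, and KRTAP2-2 was included as the KRTAP2 gene without a peak. Capitals mark matches on either strand to TGTGGT or TGCGGT (bound by RUNX factors), TGANTCA (AP-1), TATAAA (the TATA box) and GGGCGG (the GC box).
KRTAP2-1 (chr17:41047317-41047566, minus strand): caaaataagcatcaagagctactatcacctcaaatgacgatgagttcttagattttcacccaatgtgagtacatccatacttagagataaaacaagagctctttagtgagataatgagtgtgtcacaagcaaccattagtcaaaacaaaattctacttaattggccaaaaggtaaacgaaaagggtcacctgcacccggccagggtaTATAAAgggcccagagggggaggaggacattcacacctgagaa
KRTAP2-2 (chr17:41055231-41055480, minus strand): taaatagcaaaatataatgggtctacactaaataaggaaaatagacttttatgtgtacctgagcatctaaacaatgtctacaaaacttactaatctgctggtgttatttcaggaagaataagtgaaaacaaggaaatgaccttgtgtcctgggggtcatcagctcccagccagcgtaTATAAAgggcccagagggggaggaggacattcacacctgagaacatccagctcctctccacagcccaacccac
KRTAP2-3 (chr17:41060115-41060364, minus strand): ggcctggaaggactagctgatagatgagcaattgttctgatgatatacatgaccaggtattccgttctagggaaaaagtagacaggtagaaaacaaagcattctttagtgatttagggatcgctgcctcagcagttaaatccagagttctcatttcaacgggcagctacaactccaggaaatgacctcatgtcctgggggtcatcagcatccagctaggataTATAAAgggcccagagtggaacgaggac
KRTAP2-4 (chr17:41065880-41066129, minus strand): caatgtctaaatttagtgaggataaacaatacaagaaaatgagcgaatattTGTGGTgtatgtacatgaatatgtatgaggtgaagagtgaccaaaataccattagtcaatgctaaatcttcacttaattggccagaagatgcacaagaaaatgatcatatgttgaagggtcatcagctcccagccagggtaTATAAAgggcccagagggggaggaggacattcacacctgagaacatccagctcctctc
KRTAP4-6 (chr17:41140545-41140794, minus strand): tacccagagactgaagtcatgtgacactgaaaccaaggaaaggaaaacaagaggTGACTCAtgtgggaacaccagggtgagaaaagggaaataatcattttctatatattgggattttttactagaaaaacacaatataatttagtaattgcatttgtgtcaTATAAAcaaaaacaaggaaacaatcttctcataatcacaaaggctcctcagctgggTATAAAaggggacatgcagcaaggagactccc
KRT8 (chr12:52926470-52926719, minus strand): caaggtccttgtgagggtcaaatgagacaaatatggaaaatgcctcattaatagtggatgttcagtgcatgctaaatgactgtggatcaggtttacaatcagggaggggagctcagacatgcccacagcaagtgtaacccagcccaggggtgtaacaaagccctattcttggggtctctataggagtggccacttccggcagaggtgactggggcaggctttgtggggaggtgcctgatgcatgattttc
KRT12 (chr17:40867224-40867473, minus strand): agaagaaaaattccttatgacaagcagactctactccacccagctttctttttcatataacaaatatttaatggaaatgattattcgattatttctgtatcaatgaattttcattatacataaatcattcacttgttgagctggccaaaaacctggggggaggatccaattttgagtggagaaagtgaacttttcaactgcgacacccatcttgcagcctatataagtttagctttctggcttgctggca
All 4 KRTAP2 promoters held TATAAA, whose first base lay 43, 73, 28 and 58 bases before the start in KRTAP2-1, KRTAP2-2, KRTAP2-3 and KRTAP2-4. KRTAP2-4 was the only one of the 7 printed promoters with TGTGGT, at 199 bases before the start. KRTAP4-6 held TGANTCA at 196 bases and TATAAA at 88 and 32 bases. The printed bases of KRT8 and KRT12 held none of the 5 motifs in these exact letters, and variant forms, such as tatataag in KRT12, were not searched. The KRT8 start used here lies inside the gene span, and bases before any other start of KRT8 were not examined.

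Peaks were sparse at these genes. A RUNX2 peak overlapped the gene or the 3 kb on either side of it in 40 of 149 members (26.8%, 95% interval 19.9 to 34.7), against 72.6% of all protein-coding genes. An MTA1 peak did so in 24 members (16.1%, 10.6 to 23.01), against 69.4% of all protein-coding genes. Peaks of both libraries were found at 19 members (12.8%, 7.86 to 19.2), against 64.1%. The remaining 104 members (69.8%) had no peak of either library, which was the case for 22.1% of protein-coding genes. Member genes are short, with a median span of 1149 bp against 24130 bp. Among the 7043 protein-coding genes that span at most 13.5 kb, the 95th percentile of the members, 52.9% had a RUNX2 peak and 51.1% an MTA1 peak, which are above the shares of the members. These short genes still had a median span of 5576 bp, so length was not matched.

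The classes differed in their counts. Type I keratins had a RUNX2 peak in 16 of 29 genes (55.2%, 35.7 to 73.5) and an MTA1 peak in 10 (34.5%, 17.9 to 54.3). Type II keratins had a RUNX2 peak in 7 of 26 genes (26.9%, 11.6 to 47.8) and an MTA1 peak in 4 (15.4%, 4.36 to 34.9). KRTAP genes had a RUNX2 peak in 17 of 94 (18.1%, 10.9 to 27.4) and an MTA1 peak in 10 (10.6%, 5.22 to 18.7). The intervals of type I and type II keratins overlapped in both libraries, whereas those of type I keratins and KRTAP genes did not overlap for RUNX2. No difference between the classes was tested. Median spans were 5743 bp in type I keratins, 9178 bp in type II keratins and 828.5 bp in KRTAP genes. The classes were thus not matched for length. The type I intervals included the 52.9% and 51.1% of short genes, and for RUNX2 also the 72.6% of all protein-coding genes. Those of type II keratins and KRTAP genes lay below the shares of short genes in both libraries. The strongest RUNX2 peak of a gene scored above a median of 83.7% of the list in type II keratins, 60.0% in KRTAP genes and 37.8% in type I keratins. For MTA1 these medians were 85.99%, over only 4 type II genes, 62.4% and 43.0%. Over all protein-coding genes with a peak the medians were 76.3% for RUNX2 and 77.5% for MTA1. Over the short genes with a peak they were 72.7% and 76.4%. Gene length was not matched in these medians.

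**Figure D1:**
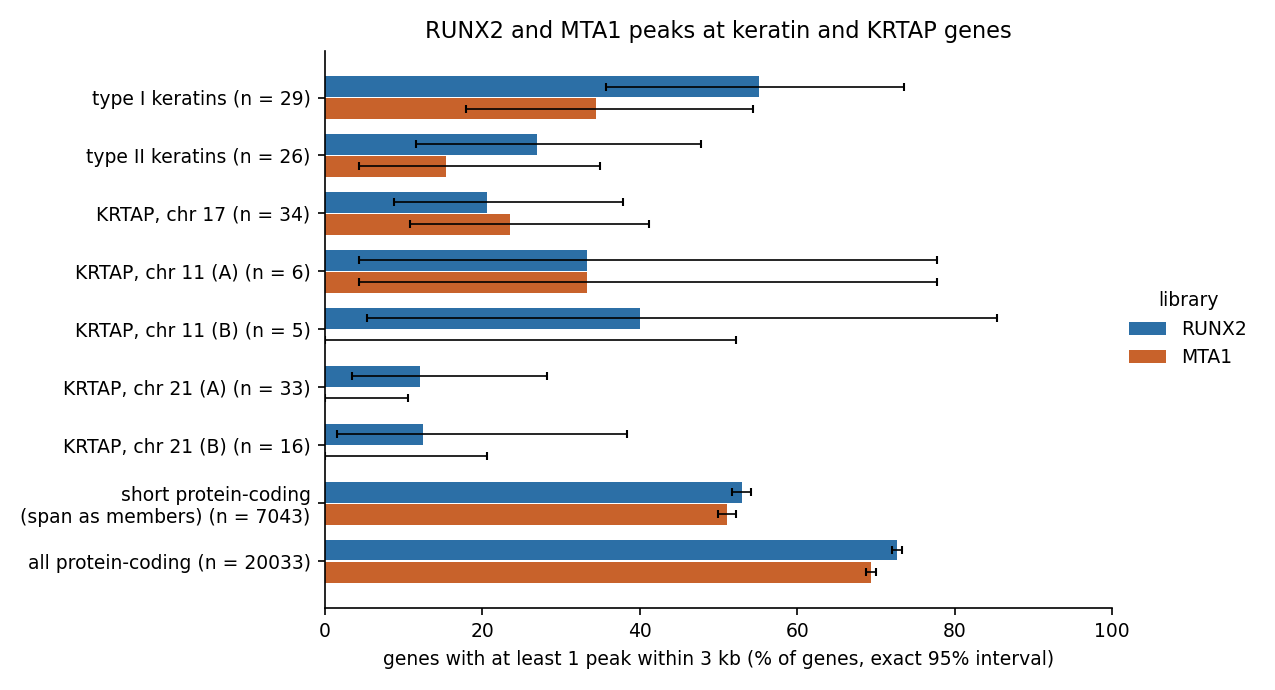
Share of genes (%) with at least 1 RUNX2 (blue) or MTA1 (orange) peak in the gene or within 3 kb of it, for keratin classes, KRTAP genes by cluster, short protein-coding genes and all protein-coding genes, with exact 95% intervals as lines. Type I keratins reached 55.2% for RUNX2, and all protein-coding genes stood at 72.6% and 69.4%. The KRTAP genes of both chromosome 21 clusters and of chromosome 11 cluster B had 0 MTA1 peaks.

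The simple epithelial and basal keratins were described apart. KRT7, KRT8, KRT18 and KRT19 had peaks of both libraries, as 64.1% of protein-coding genes did, whereas KRT14 had a RUNX2 peak only and KRT5 had none. With 4 and 2 genes the intervals of the shares overlapped, and the median span was 13650 bp in the first group and 5218 bp in the second. KRT8 and KRT18, the obligate partners of simple epithelia, shared their strongest RUNX2 peak, chr12:52949819-52950004, with a score of 30.0 that was above 93.9% of the list. The overlapping MTA1 peak, chr12:52949763-52950080, scored 10.5, above 66.7% of its list. This pair of peaks lay wholly inside KRT18, where it was the only peak of each library. The span of KRT8 ended within both peaks, so they lay only partly in KRT8. Position alone does not assign them to either gene. The annotated span of KRT8 reaches into KRT18, and 5 RUNX2 and 3 MTA1 peaks overlapped the KRT8 span. The highest MTA1 peak of KRT8, chr12:52927326-52927648, lay 857 to 1179 bp before the annotated start whose promoter is printed above, with a score of 23.3 (above 91.1%). The RUNX2 peak there, chr12:52927315-52927653, scored 20.3 (above 87.4%). The span of KRT8, 52670 bp, extends to both sides of this start, so these peaks before the start also lay within the gene. Since the span begins 23.4 kb before this start, KRT8 may have other starts, which were not examined. Behind the start, MTA1 scored 12.4 at chr12:52925199-52925370 and the overlapping RUNX2 peak scored 6.21. Both libraries thus marked both sides of this start, with the higher scores before it. The other RUNX2 peaks of KRT8 scored 6.71 and 6.87 and had no MTA1 peak.

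KRT7, the type II keratin of ductal epithelia, carried a RUNX2 peak within the gene, chr12:52244118-52244385, with a score of 17 (above 83.7%). The MTA1 peak inside it scored 6.49 (above 40.04%). A second RUNX2 peak, 2522 bp outside the gene, scored 4.90. KRT19, a type I keratin that lacks the usual tail domain, had weaker peaks. Its RUNX2 peak, chr17:41530264-41530399, lay 1956 bp outside the gene with a score of 6.25 (above 46.3%). The MTA1 peak over it scored 6.86 (above 43.5%), and an MTA1 peak on the other side of the gene scored 4.70 without a RUNX2 peak. KRT14, the basal type I chain, had only the RUNX2 peak chr17:41579668-41579880, 2399 bp outside the gene, with a score of 4.33 (above 13.8%). Its partner KRT5 lay in a stretch of 124.3 kb without a peak of either library, together with KRT6A, KRT6B, KRT6C and KRT71.

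**Figure D2:**
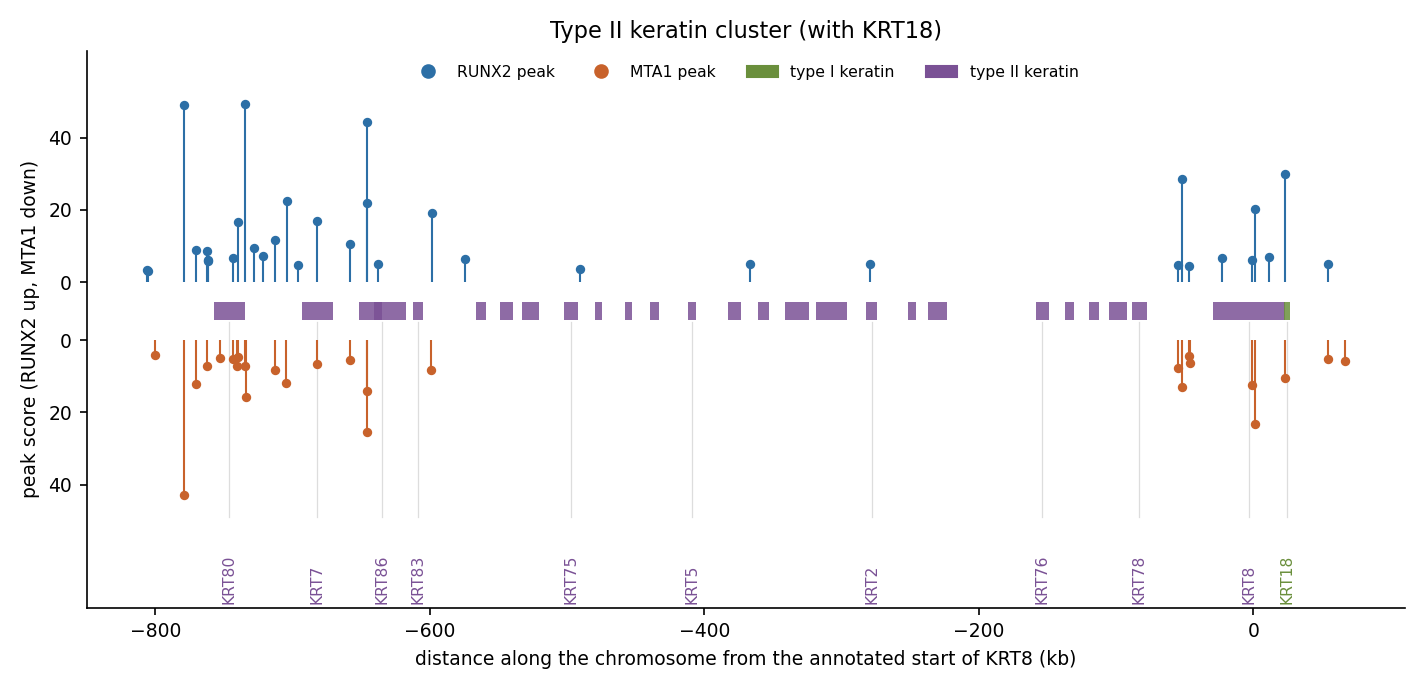
Peaks of RUNX2 (up) and MTA1 (down) along the chromosome 12 cluster, with the score of each peak on the vertical axis and the distance from the annotated start of KRT8 in kb on the horizontal axis, and boxes for genes. Peaks gathered at the KRT80 to KRT86 end and at the KRT8 and KRT18 end, and a stretch of 224.2 kb between KRT2 and KRT8 held none. The tall pair left of KRT80 lay outside the cluster.

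The remaining type II genes with peaks were KRT80, KRT86, KRT81, KRT75 and KRT2. KRT80, a keratin of differentiating epithelia, had the highest RUNX2 score of all members. That peak, chr12:52191871-52192490, spanned 620 bp over the end of the gene that faces KRT7, with a score of 49.3 (above 98.5%). MTA1 had separate peaks under it, of which chr12:52192281-52192428 scored 15.6 (above 80.9%) and chr12:52191913-52192055 scored 7.19. Inside the gene, RUNX2 peaks scored 16.6 and 6.59, and both had MTA1 overlap. KRT80 thus held 3 RUNX2 and 6 MTA1 peaks, and at every shared place RUNX2 had the higher rank. KRT86, a hair keratin of the cortex, held neighbouring peaks within its span that both libraries shared but ranked in opposite order. At chr12:52280899-52281284 RUNX2 scored 44.4 (above 97.9%) and MTA1 14.2 (above 77.9%). At chr12:52280356-52280792 RUNX2 scored 21.9 (above 88.9%) and MTA1 25.4 (above 92.8%). A further RUNX2 peak with a score of 5.10 lay in KRT86 and in KRT81, another hair keratin, and was the only peak of KRT81. KRT75, a keratin of the hair follicle, and KRT2, a keratin of the upper epidermis, had RUNX2 peaks of the narrowest width (99 bp) with scores of 3.67 and 5.11. The other 19 type II genes had no peak. They include KRT1 of the suprabasal epidermis, KRT4 of mucosal epithelia, KRT3 of the cornea, the KRT6 genes induced in wounded epidermis, and the hair keratins KRT82, KRT83, KRT84 and KRT85.

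Among type I genes, the hair keratins held the strongest peaks of chromosome 17 keratins. KRT34 had the highest MTA1 score of all members, 29.0 at chr17:41380086-41380443 within the gene (above 94.9%). The RUNX2 peak there, chr17:41380103-41380425, scored 7.54 (above 56.9%). KRT39 had the reverse order, with a RUNX2 score of 16.2 (above 82.6%) at chr17:40956956-40957097, 1320 bp outside the gene, and an MTA1 score of 6.58 (above 40.6%). KRT32 likewise ranked higher for RUNX2, with 11.03 (above 72.1%) against an MTA1 score of 5.15 (above 19.2%). KRT33B had scores of 6.40 for RUNX2 and 7.26 for MTA1, above 47.6% and 46.6% of their lists. KRT36 had a RUNX2 score of 4.33 alone. Over all 17 hair keratins of both types, 7 had a RUNX2 peak (41.2%, 18.4 to 67.1). An MTA1 peak was found at 5 (29.4%, 10.3 to 56.0), and those 5 had both. Both intervals lay below the 72.6% and 69.4% of all protein-coding genes and included the 52.9% and 51.1% of short genes.

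The other type I genes with peaks were epithelial. KRT16 and KRT17 are induced in wounded and hyperproliferative epidermis. The RUNX2 peak of KRT16, chr17:41612905-41613095, lay 138 bp outside the gene with a score of 12.6 (above 76.1%) and had no MTA1 peak. KRT17 had RUNX2 scores of 9.39 and 4.37 and an MTA1 score of 6.39, at places that did not overlap. KRT15, a basal keratin, had weak peaks that did not overlap either, with 4.52 for RUNX2 and 4.70 for MTA1. KRT10, the suprabasal partner of KRT1, and KRT23 had an MTA1 peak only, with scores of 7.26 and 6.78. RUNX2 alone had peaks at KRT12 of the cornea (5.22), KRT20 of the intestine (3.67), KRT9 of palm and sole skin (3.30), KRT24 (5.22) and KRT222 (3.67), and all 5 peaks were of the narrowest width. No peak was found at KRT13 of mucosal epithelia, at KRT25, KRT26, KRT27 and KRT28 of the hair root sheath, or at the hair keratins KRT31, KRT33A, KRT35, KRT37, KRT38 and KRT40.

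**Figure D3:**
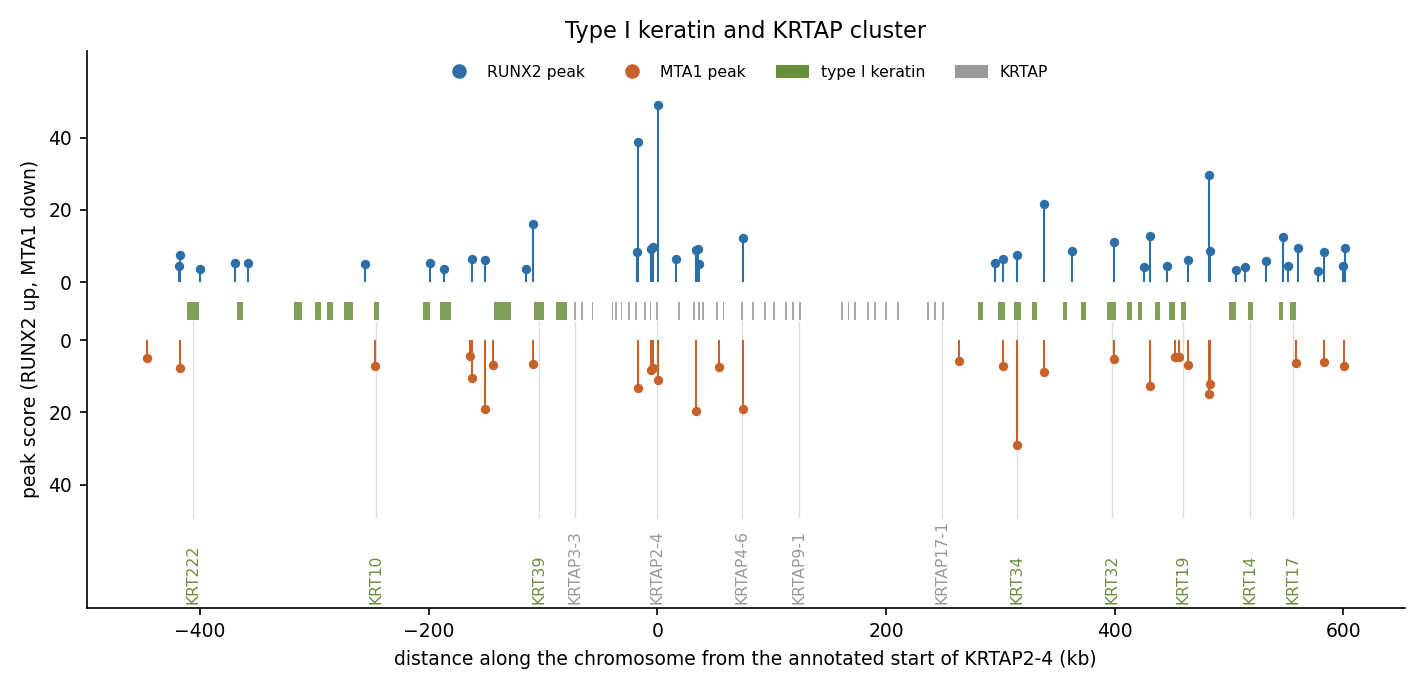
Peaks of RUNX2 (up) and MTA1 (down) along the chromosome 17 cluster, with the score of each peak on the vertical axis and the distance from the annotated start of KRTAP2-4 in kb on the horizontal axis, and boxes for genes. The highest RUNX2 peaks stood at KRTAP2-4 and KRTAP2-1, the highest MTA1 peak stood at KRT34, and a stretch of 188.3 kb from KRTAP4-5 to KRTAP17-1 held none.

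The KRTAP genes were described by cluster and family. On chromosome 17, 7 of 34 KRTAP genes had a RUNX2 peak, 8 had an MTA1 peak and 6 had both. Of the 4 KRTAP2 genes, which encode high-sulfur proteins of the hair cortex, 3 had peaks of both libraries. KRTAP2-4 had the second highest RUNX2 score of all members, 48.9 (above 98.4%) at chr17:41066304-41066744, which lay 425 to 865 bp before the annotated start. The MTA1 peak within it, chr17:41066354-41066483, scored 11.1 (above 69.2%). KRTAP2-1 had a RUNX2 score of 38.8 (above 96.8%) at chr17:41049174-41049471, 1858 to 2155 bp before its start, with an MTA1 score of 13.2 (above 75.5%). A RUNX2 peak with a score of 8.33 lay nearer to that start and had no MTA1 overlap. KRTAP2-3 had moderate peaks 344 to 490 bp before its start for RUNX2, with a score of 9.21, and 291 to 437 bp before it for MTA1, with a score of 8.38. A peak between KRTAP2-3 and KRTAP2-4 scored 9.70 for RUNX2 and 7.59 for MTA1 and counts for both genes. KRTAP2-2 had no peak. Its promoter was 67.7% identical to that of KRTAP2-1 and 75.3% identical to that of KRTAP2-4. By the same measure, where the most similar promoter was of another family, identities reached 65.3% (KRTAP23-1 with KRTAP13-3). Other such pairs had 61.7% (KRTAP20-2 with KRTAP4-6) and 56.3% (KRT8 with KRTAP5-9). The lowest identity within the KRTAP2 family was also 65.3% (KRTAP2-2 with KRTAP2-3). The peaks of KRTAP2-1, KRTAP2-3 and KRTAP2-4 all lay farther from the start than the printed bases. The identities therefore do not cover the places of these peaks.

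The KRTAP4 genes encode ultra-high-sulfur proteins of the hair shaft. Among these 12 genes RUNX2 peaks were found at 4, MTA1 peaks at 5 and both at 3, and at those 3 MTA1 ranked higher than RUNX2. KRTAP4-6 had the MTA1 peak chr17:41140763-41141148 with a score of 18.96 (above 86.4%), 219 to 604 bp before its start. The RUNX2 peak, chr17:41140756-41141153, scored 12.3 (above 75.4%), and its near edge, 212 bp before the start, lay inside the printed promoter. KRTAP4-8 and KRTAP4-16 shared a peak with an MTA1 score of 19.7 (above 87.3%) at chr17:41099764-41100024 and a RUNX2 score of 9.02 (above 65.0%). KRTAP4-16 had further RUNX2 peaks with scores of 9.14 and 4.94. KRTAP4-7 had a RUNX2 score of 6.40, and KRTAP4-11 and KRTAP4-12 shared an MTA1 peak with a score of 7.54. No peak was found at the 4 KRTAP1, the 3 KRTAP3 and the 8 KRTAP9 genes of the same cluster.

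The ultra-high-sulfur KRTAP5 genes lie in blocks of 6 and 5 genes on chromosome 11. RUNX2 peaks were found at 4 of these 11 genes and MTA1 peaks at 2, both in the block of 6. The block of 5 had no MTA1 peak. KRTAP5-10 had the strongest, a RUNX2 peak at chr11:71563508-71563772 with a score of 16.7 (above 83.3%), 1791 bp outside the gene and without an MTA1 peak. KRTAP5-6 had a RUNX2 score of 8.04 and an MTA1 score of 4.70 at overlapping places. KRTAP5-3 and KRTAP5-9 had RUNX2 scores of 4.84 and 5.22, and KRTAP5-4 had an MTA1 score of 5.53. On chromosome 21, 4 of 33 KRTAP genes in one block and 2 of 16 in the other had a RUNX2 peak, and none of these 49 genes had an MTA1 peak. With 0 genes, the exact interval allows an MTA1 share of up to 10.6% in the block of 33 and 20.6% in the block of 16. The RUNX2 scores there were 8.60 at KRTAP21-3, 3.67 at KRTAP21-2 and at the peak shared by KRTAP22-2 and KRTAP6-3, 6.25 at KRTAP10-11 and 3.48 at KRTAP10-9. The peaks of the KRTAP10 genes also lay within 3 kb of TSPEAR, the gene in which this block lies. All 8 KRTAP19 and all 4 KRTAP12 genes were without a peak.

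**Figure D4:**
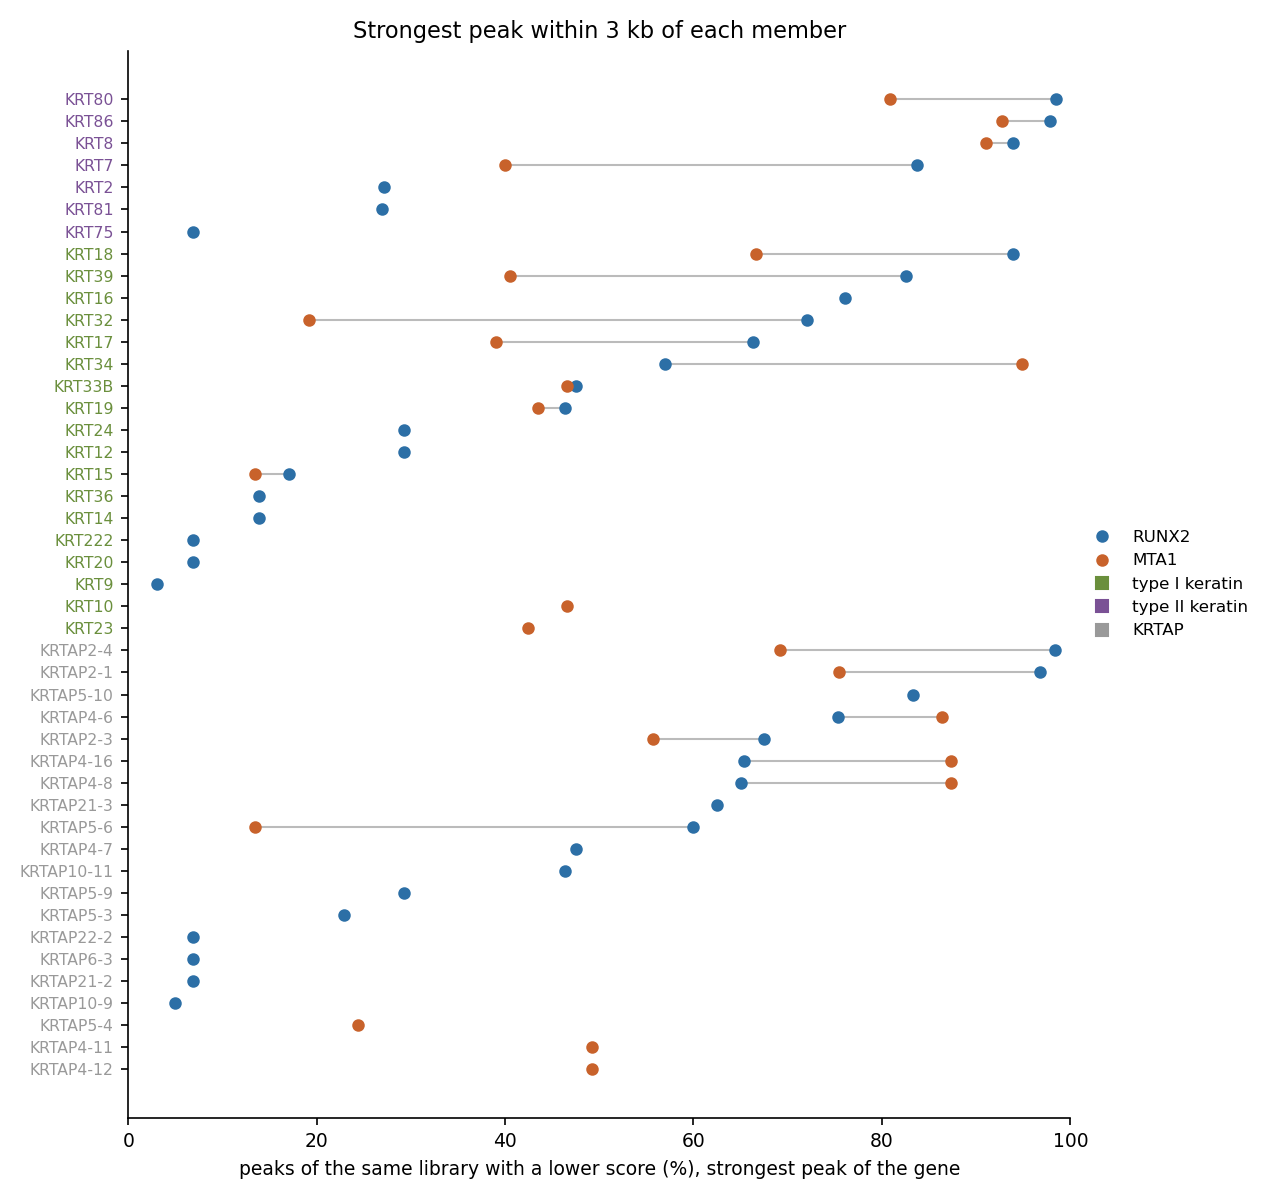
Strongest RUNX2 (blue) and MTA1 (orange) peak of each of the 45 members with a peak, as the percentage of peaks of the same library with a lower score, with grey lines joining the values of a gene with both. The RUNX2 percentage was higher at 15 of 19 genes with both, and the MTA1 percentage at KRT34, KRTAP4-6, KRTAP4-8 and KRTAP4-16, while by rank number RUNX2 was ahead at 11 of 19.

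As shown in the plot of strongest peaks, the libraries often marked the same places but with different ranks. The members held 51 distinct RUNX2 peaks and 31 distinct MTA1 peaks. Of the RUNX2 peaks, 21 (41.2%, 27.6 to 55.8) overlapped an MTA1 peak, against 45.4% of the whole RUNX2 list. Of the MTA1 peaks, 23 (74.2%, 55.4 to 88.1) overlapped a RUNX2 peak, against 65.5% of the whole MTA1 list. Both intervals included the share of the whole list. At 17 of the 19 members with both kinds of peak the peaks overlapped, the exceptions being KRT15 and KRT17. By the percentage of the list with a lower score, the strongest RUNX2 peak stood above the strongest MTA1 peak at 15 of these 19 members, and below it at KRT34, KRTAP4-6, KRTAP4-8 and KRTAP4-16. The lists differ in length, and by rank number, counted from the top score, RUNX2 was ahead at 11 members and MTA1 at 8, with KRT15, KRT19, KRT33B and KRTAP2-3 changing sides. Since KRTAP4-8 and KRTAP4-16 share their MTA1 peak, these 4 genes stand for 3 MTA1 peaks. Member peaks scored close to the rest of their lists. Their median score was 6.59 for RUNX2 and 7.26 for MTA1, against 6.70 and 7.58 in the whole lists, and 5 RUNX2 and 3 MTA1 peaks lay in the top decile of their list. The narrowest width in the list was that of 16 RUNX2 member peaks (31.4%, against 31.7% of the list) and 7 MTA1 member peaks (22.6%, against 26.0%).

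Few peaks lay at annotated starts. Of the 114 members with an annotated start, 13 (11.4%) had a RUNX2 peak within 1 kb of it, against 52.1% of protein-coding genes with such a start. An MTA1 peak lay there in 4 members (3.51%), against 53.9%. The 4 members were KRT8, KRTAP2-3, KRTAP2-4 and KRTAP4-6, and all of them also had a RUNX2 peak there. For KRT8 this holds at the start inside its span, the only one used. The other 9 with RUNX2 alone were KRT9, KRT12, KRTAP4-16, KRTAP5-3, KRTAP5-9, KRTAP6-3, KRTAP10-9, KRTAP21-2 and KRTAP21-3. Apart from KRTAP4-16 (9.14) and KRTAP21-3 (8.60), their strongest peak there scored at most 5.22.

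**Figure D5:**
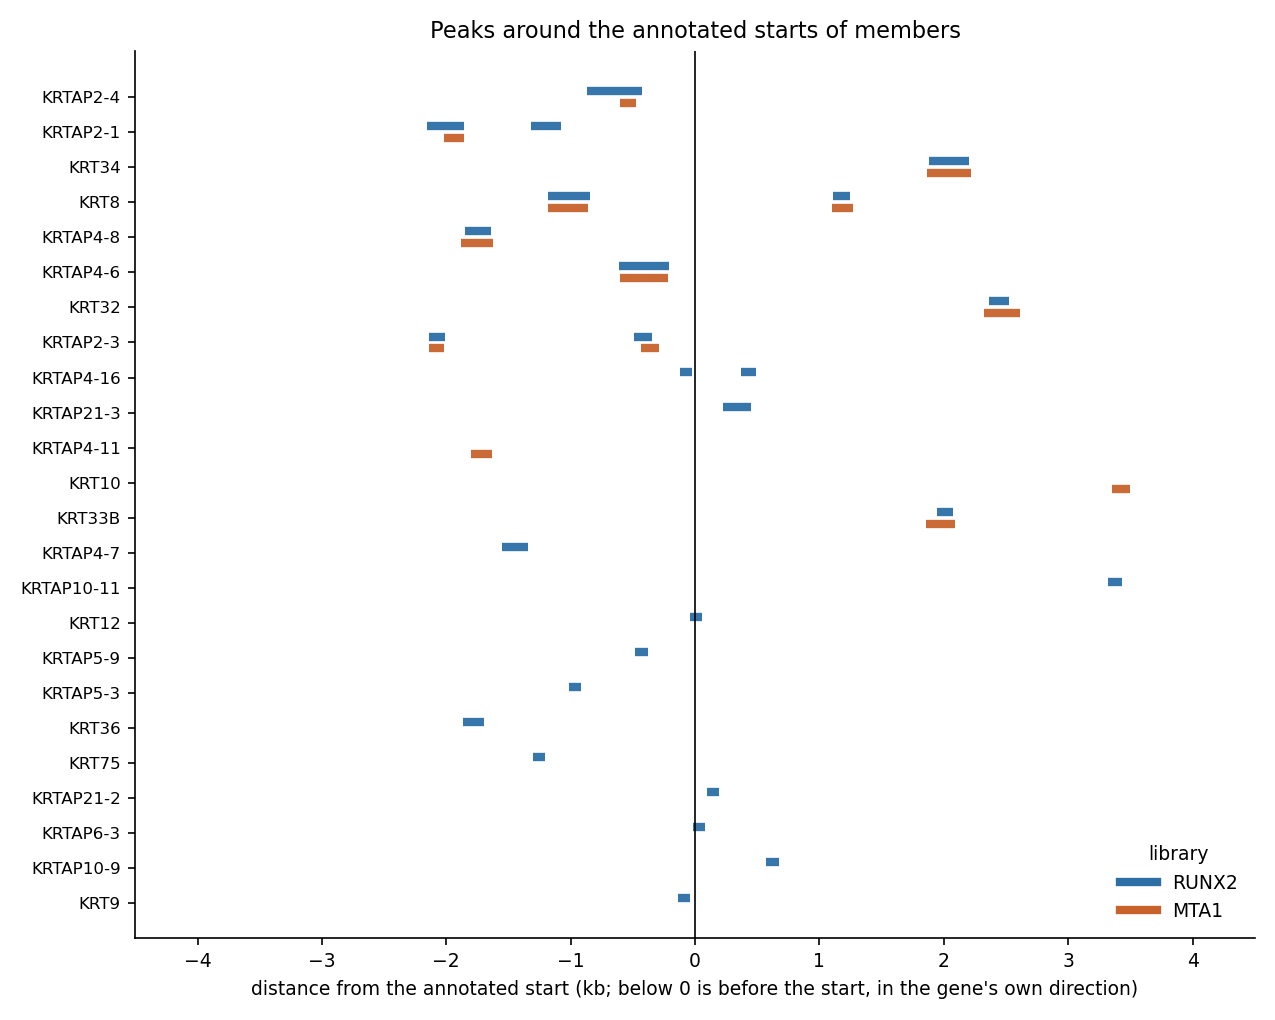
Position of RUNX2 (blue) and MTA1 (orange) peaks around the annotated start of members, in kb in the direction of the gene, with the member of the highest score at the top. The peaks of KRTAP2-1, KRTAP2-3, KRTAP2-4 and KRTAP4-6 lay before the start, those of KRT34 and KRT32 behind it, and KRT12 and KRTAP6-3 had a peak across it.

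The promoters of the members also differed in their letters from other promoters. The bases from 250 before to 50 after the start were searched on both strands in 118 promoters of 114 members and in 22198 promoters of all protein-coding genes. TATAAA was found in 85 member promoters (72.03%), against 9.47% of all. It was more frequent in KRTAP promoters (64 of 80, 80.0%) than in keratin promoters (21 of 38, 55.3%). GGGCGG was found in 7 member promoters (5.93%), against 56.3% of all. The RUNX motif TGTGGT was found in 21 (17.8%), against 11.3% of all, and TGCGGT in 1 (0.848%), against 8.54%. With either letter form counted, 22 member promoters (18.6%) held a RUNX motif, against 18.98% of all promoters. TGANTCA was found in 7 (5.93%), against 6.15%, and all 7 were KRTAP promoters. These motifs were searched as letters and do not show that a factor was bound.

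Promoter letters moved with the peaks over all genes, so member promoters were set beside other promoters with the same letters. This comparison was added after the data had been seen. It counts promoters, so a gene with several annotated starts counts once for each, and the intervals treat these as separate. With TATAAA and no GGGCGG, 9 of 83 member promoters (10.8%, 5.08 to 19.6) had a RUNX2 peak within 1 kb of the start. Among 1487 such promoters of other protein-coding genes the share was 16.6%. For MTA1 the values were 3 of 83 (3.61%, 0.752 to 10.2) against 15.9%. Where neither motif was found, 3 of 28 member promoters (10.7%, 2.27 to 28.2) had a RUNX2 peak, against 33.1% of promoters of other genes. An MTA1 peak was found at 1 (3.57%, 0.0904 to 18.4), against 34.0%. Promoters of other genes with GGGCGG and no TATAAA reached 61.9% and 64.2%. For member promoters with TATAAA and no GGGCGG, the RUNX2 interval thus included the RUNX2 share of other promoters with these letters. The MTA1 interval lay below the MTA1 share of those promoters. With neither motif, the member intervals of both libraries lay below the shares of other promoters. The part of promoter type in the low counts was not tested.

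The clusters as a whole were not empty. The chromosome 12 cluster held 26 RUNX2 and 20 MTA1 peaks in 783.9 kb, which is 33.2 and 25.5 per Mb, and the chromosome 17 cluster held 37 and 24 in 969.9 kb, which is 38.2 and 24.7 per Mb. Over all chromosomes the densities were 20.5 and 14.2 per Mb. The 250 kb on either side of the clusters were denser, with 72 RUNX2 and 54 MTA1 peaks per Mb beside the chromosome 12 cluster and 82 and 62 beside the chromosome 17 cluster. The blocks on chromosome 21 held 9.25 and 12.6 RUNX2 peaks per Mb and 0 MTA1 peaks, with 10 RUNX2 and 8 MTA1 peaks per Mb beside the block of 33 genes and 72 and 40 beside the block of 16. The chromosome 11 blocks held 44.1 and 36 RUNX2 peaks per Mb, from 5 and 2 peaks, against 48 and 42 beside them. Beside the second of these blocks, 18 peaks lay on one side and 3 on the other. The chromosome 21 block of 33 genes held 7 RUNX2 peaks. So few peaks cannot show whether these blocks match their surroundings. Peaks were unevenly placed within the clusters. On chromosome 12 a stretch of 224.2 kb with KRT1, KRT77, KRT76, KRT3, KRT4, KRT79 and KRT78 held no peak of either library. On chromosome 17 the longest such stretch, 188.3 kb, held 16 KRTAP genes, including all 8 KRTAP9 genes, and a stretch of 102.7 kb held KRT25 to KRT28. On chromosome 21 the longest stretch was 469.2 kb with 5 KRTAP genes, and another of 262.7 kb held 15. Such stretches are common in these lists: gaps at least as long as that on chromosome 12 made up 33.3% of the length between first and last peaks, and gaps as long as 188.3 kb made up 37.8%. The first protein-coding genes beyond the clusters had peaks as well. EIF4B, a translation factor gene beside KRT18, had an MTA1 score of 51.3 (above 99.4%), and EIF1, another beside KRT17, had 31.2 (above 95.7%), both higher than any member. On the other sides, SMIM41 beside KRT80 had a RUNX2 score of 24.6 and no MTA1 peak, and SMARCE1 beside KRT222 had 7.54 for RUNX2 and 7.82 for MTA1.

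Genes that work with keratins were described by the same rule. Of 17 desmosome and plakin genes, which anchor keratin filaments to junctions, 12 had a RUNX2 peak and 11 an MTA1 peak, where 72.6% and 69.4% of protein-coding genes had one. Among them PPL, the plakin periplakin, scored 70.3 for RUNX2 (above 99.7%) and 19.4 for MTA1, whereas DSP, which encodes desmoplakin, had no peak. Of 15 other intermediate filament genes, 11 had a RUNX2 peak and 7 an MTA1 peak. VIM, the vimentin gene of mesenchymal cells, scored 22.4 for RUNX2 (above 89.3%) and 15.0 for MTA1 (above 79.9%). Of 13 cornified envelope genes, which build the barrier of stratified epithelia, 7 had a RUNX2 peak and 2 an MTA1 peak, and IVL, LORICRIN and FLG had none. Of 8 regulators of epithelial keratin genes, 6 had a RUNX2 peak and 6 an MTA1 peak, with scores of 10.1 and 19.5 at TP63, the regulator of basal keratins. The median span was 43580 bp in the first list, 12340 bp in the second, 5360 bp in the third and 16360 bp in the fourth, so their counts are not matched for length to each other or to the keratins.

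Near-identical copies limit what can be read from KRTAP genes, since how reads with several matching places were treated is not stated. Promoters of the 7 KRTAP9 genes with a start were 60.7% to 94.3% identical to each other and none of the genes had a peak, whereas those of the 12 KRTAP4 genes were 39.3% to 92.7% identical and 6 of the genes had one. Of the 6 KRTAP genes whose most similar promoter was at least 90% identical, 2 had a peak, against 15 of 74 (20.3%) of the others. The KRT6 and KRT86 groups also contain close copies, and their peaks or lack of peaks should be read with this limit.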

How the data were processed

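RUNX2 and MTA1 libraries of MDA-MB-231 cells were analysed from the peak list that the authors deposited for each library, with chromosome, start, end, name and a score for each peak. The scale of this deposited score, the caller threshold and any control library are not given in the sources used here. The submitters' processing notes name CASAVA 1.4, Bowtie 0.12.8, MACS, MACS2 and build hg19, with no role for each. The labels describe end polishing, adaptor ligation and size selection, whereas the methods of the study describe CUT&Tag, and the labels and methods name different suppliers for both antibodies, so the library preparation and the antibody products are uncertain.

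The listed positions were matched to RefSeq genes of GRCh38.p14, because 15.9% of RUNX2 and 22.7% of MTA1 peak centres lay within 1 kb of an annotated start at the listed positions, against at most 2.42% and 2.70% at 200 other offsets of up to 500 kb. Positions are printed 1-based as listed, and the 17 RUNX2 and 15 MTA1 mitochondrial peaks were left out. A gene was counted when a peak shared at least 1 bp with the gene or the 3 kb on either side, and peaks of the libraries were called overlapping at 1 bp. Clusters are runs of members with gaps of at most 1 Mb. Promoter sequences came from RefSeq (GRCh38.p14).

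With 1 library per antibody no test was made. Named genes are the simple epithelial and basal keratins, the members with the 12 highest peaks of each list, the genes beside the clusters, and members with a peak by class. Hair keratins, KRTAP families and most printed promoters were grouped or chosen after values were seen. The members and lists were chosen with earlier results of these data known. Overlap counting was tested on simulated peaks. Alternatives were windows of 1 and 10 kb, gene ends, starts, peak centres, score and width filters, 50% overlap, backgrounds of short genes and without members, and clusters with 50 kb added. Python 3.11.15, numpy 2.4.6, pandas 2.3.3, scipy 1.17.1, Biopython 1.88 and matplotlib 3.10.9 were used.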

Additional observations from a re-analysis of the deposited data

How the results depend on the processing

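Counts of members with a peak moved with the window and with the filter on peaks. Given as members with RUNX2, with MTA1 and with both, a window of 1 kb left 24, 15 and 11, and one of 10 kb gave 69, 37 and 33. Within 1 kb of the annotated start they were 13, 4 and 4, where 35 members have no start by construction. Leaving out peaks under the median score gave 19, 11 and 11 members, and keeping the 10000 top peaks per list gave 6, 7 and 3. Peaks wider than the narrowest left 26 members with a RUNX2 peak, while the other counts stayed within 1.5 times. Gene ends alone (38, 22 and 17 members) and peak centres (39, 22 and 18) changed little. In each of these settings the share of members was below that of protein-coding genes, as with the 10000 highest peaks, where it was 4.03% against 27.0% for RUNX2 and 4.70% against 35.7% for MTA1. The share of MTA1 member peaks that overlap a RUNX2 peak moved to 54.8% with an overlap of 50% of both peaks and to 92.3% without peaks under the median score. The share of protein-coding genes with a peak fell to 52.9% for RUNX2 and 51.1% for MTA1 among genes of short span. With 50 kb added, the largest moves of cluster densities were in small blocks, from 12.6 to 23.2 RUNX2 peaks per Mb in the chromosome 21 block of 16 genes, which passes the 20.5 of all chromosomes, and from 0 to 12.8 MTA1 peaks per Mb in the chromosome 11 block of 5 genes. No paired analysis was possible because each antibody has 1 library. Without replicates or depth, weak peaks cannot be told apart from background.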

Other observations

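Peaks also lay between the keratin genes, more than 3 kb from any of them. Counted at any score, these made up 11 of 26 RUNX2 and 8 of 20 MTA1 peaks in the chromosome 12 cluster, and 11 of 37 and 8 of 24 in the chromosome 17 cluster. The strongest RUNX2 peak of this kind, chr17:41547889-41548247, scored 29.7 (above 93.8%), shared bases with an MTA1 peak scoring 14.8 and lay 17.6 kb from KRT9, the keratin of palm and sole skin. On chromosome 12, chr12:52874340-52874547 scored 28.5 for RUNX2 (above 93.3%), with an overlapping MTA1 score of 12.9, and its nearest member was KRT8 at a distance of 22.6 kb.

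Some of these peaks lay in non-coding genes of the annotation. The RUNX2 peak chr12:52221919-52222307, with a score of 22.5 and an MTA1 score of 11.9, lay in LINC00592, 10.9 kb from KRT7. The RUNX2 peak chr17:41403968-41404434, with a score of 21.7 and an MTA1 score of 8.69, lay in LOC100505782, 6.36 kb from KRT31, a hair keratin without a peak within 3 kb. The strongest MTA1 peak of this kind, chr17:40915301-40915539, scored 19.03 (above 86.5%), overlapped a RUNX2 peak with a score of 6.25 and lay in LOC105371777, 7.16 kb from KRT23. With a single library per antibody, none of these values has a replicate, and no gene was assigned to these peaks.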
